A study of Homo sapiens with 16 samples.

Results

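The mitochondrial genome encodes a small set of proteins, all of them subunits of the respiratory chain, and 10 of these genes are described here: ND1, ND2, ND4 and ND5 of complex I, CYTB of complex III, COX1, COX2 and COX3 of complex IV, and ATP6 and ATP8 of complex V. They were taken by name, as the rows of the deposited tables that carry these symbols. Earlier results of these data were known when the set was chosen. All 10 were found among the 18227 genes of the tables, which hold 15 genes of the mitochondrial genome in all, 13 of them protein genes. ND3, ND4L, ND6 and the ribosomal RNA genes MT-RNR1 and MT-RNR2 are given only beside them.

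A549 and H2023, established lines of human lung cancer of the non-small cell kind, were studied as wild type and with a knockout of ZC3H12A, the gene of the endoribonuclease Regnase-1. Both genotypes were harvested after 3 days of normal culture and after 7 days in conditions that enrich stem-like cells, called oncosphere culture here, so culture type and days in culture change together. This gives 8 groups of 2 libraries, with no other treatment named. Messenger RNA libraries (TruSeq Stranded mRNA) were made from total RNA. The titles name 1 clone per line for the knockout, so a difference from wild type also holds whatever else sets that clone apart, and nothing in the labels says that the 2 libraries of a group came from separate cultures. The p-values therefore measure the spread between these libraries, which may be technical. These are bulk samples, in which fewer cells of a type and less RNA per cell cannot be told apart.

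Mitochondrial DNA is copied into long transcripts of each strand by the polymerase POLRMT with the help of TFAM and TFB2M. These are cut mostly at the transfer RNAs that lie between the genes, and the released mRNAs are given short poly(A) tails, held stable by the LRPPRC and SLIRP proteins, and translated on the mitochondrion's own ribosomes. The proteins join nuclear-encoded subunits in complexes I, III and IV, which pump protons as electrons pass to oxygen, and in complex V, the ATP synthase that the protons drive.

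How the genes lie on the genome bears on how their reads can be counted. In GENCODE 29 on GRCh38 (chrM, plus strand for all 10), ND1 spans 3307 to 4262, ND2 4470 to 5511, COX1 5904 to 7445, COX2 7586 to 8269, ATP8 8366 to 8572, ATP6 8527 to 9207, COX3 9207 to 9990, ND4 10760 to 12137, ND5 12337 to 14148 and CYTB 14747 to 15887, each as an unspliced protein-coding gene. ATP8 and ATP6 share 46 bases, since ATP6 starts in another frame before ATP8 ends, and both are carried by the same mRNA. The end of ATP8 (chrM:8513-8572) and the start of ATP6 (chrM:8527-8586) are shown 5′ to 3′ with the shared bases in capitals, since a read from this stretch fits both genes.
ATP8: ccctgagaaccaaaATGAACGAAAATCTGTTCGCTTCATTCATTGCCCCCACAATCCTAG
ATP6: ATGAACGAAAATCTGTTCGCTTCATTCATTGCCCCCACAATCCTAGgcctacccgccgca

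ND4 overlaps ND4L, its partner on a shared mRNA, by 7 bases. The end of ND4L (chrM:10737-10766) and the start of ND4 (chrM:10760-10789) are shown in the same way.
ND4L: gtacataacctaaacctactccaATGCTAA
ND4: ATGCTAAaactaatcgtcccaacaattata

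The annotated sequences of ND1, ND2, COX3, ND4 and CYTB stop short of a whole number of codons. Their stop codon is completed by the poly(A) tail, so for these genes the tail that lets an mRNA kit capture the RNA is also part of the message. The last 18 bases of each are shown, with the bases past the last whole codon in capitals.
ND1 (chrM:4245-4262): cattccccctcaaaccTA
ND2 (chrM:5494-5511): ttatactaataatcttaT
COX3 (chrM:9973-9990): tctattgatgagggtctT
ND4 (chrM:12120-12137): ttaccgggttttcctctT
CYTB (chrM:15870-15887): aaatactcaaatgggccT

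Values are TPM, transcript numbers relative to all transcripts of the library, which are scaled to a fixed sum within a library and to gene length, so levels can be compared between genes of ordinary length, which does not hold for the short ATP8. The sequencing depth of a library is unknown. The genes of the mitochondrial genome together held 10.3% to 25.6% of a library's TPM. ZC3H12A was examined first, as a check of the labels. In A549 normal culture it stood at 30.7 and 34.9 TPM in wild type and at 16.9 and 19.9 in the libraries labelled knockout, but in the other 3 comparisons its level in the libraries labelled knockout was above that in wild type, reaching 94.6 and 69.2 against 32.5 and 26.4 in H2023 oncosphere culture. The mRNA level therefore does not check the label there. Of 10 lung epithelial markers, 7 were in the tables, with a summed level of 2574 to 13034 TPM. Their sum was lower in oncosphere than in normal culture in H2023, at 4329 to 4567 against 8751 to 9398 TPM in wild type and 7769 to 8275 against 12327 to 13034 TPM in knockout. In A549 it was 6670 to 7548 against 9176 to 9348 TPM in wild type, but 5663 to 7831 against 2574 to 5013 TPM in knockout. KRT7, KRT8 and KRT18 made up most of the sum. Of the rest, EPCAM, KRT19 and NAPSA had higher means in oncosphere culture in both H2023 genotypes, and CDH1 lower ones. NKX2-1, SFTPB and SFTPC were not among the rows analysed here. The fibroblast markers summed to 1.58 to 10.1 TPM (3 of 6 in the tables) and the endothelial marker PECAM1 to at most 2.76 TPM (1 of 4). Both leukocyte markers found, CD68 and LYZ (2 of 4), summed to 124 to 197 TPM in A549 oncosphere wild type. Their sum was 29.7 to 44.8 TPM in A549 oncosphere knockout and 28.7 to 45.9 TPM in the 2 A549 groups of normal culture. CD68 made up most of each sum, and LYZ reached at most 18.6 TPM. In H2023 they summed to 30.9 to 89.4 TPM in oncosphere wild type and 72.4 to 132.9 TPM in oncosphere knockout, against 34.6 to 39.4 and 32.4 to 37.9 TPM in normal culture. No muscle marker of 3 was in the tables. Their part in the results was not tested.

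A feature of the normal-culture libraries touches every comparison below. Within each group of normal culture, replicate 2 stood above replicate 1 for nearly all of the mitochondrially encoded genes: 10 of 10 in A549 wild type, A549 knockout and H2023 wild type, and 9 of 10 in H2023 knockout. The median difference was 0.44, 0.59, 0.35 and 0.23 on the log2 scale, while the median over all genes lay between -0.07 and 0.00. In oncosphere culture, replicate 2 was above replicate 1 for 10 and 8 of the genes in A549 wild type and knockout and for 5 and 6 in H2023, with medians of 0.00 to 0.17. In normal culture the spread between replicates was thus a shared shift of nearly the whole set. The shift was smaller in A549 oncosphere culture, and none was shared by the set in H2023 oncosphere culture.

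The genes differed widely in level. COX1 had the highest median over the 16 libraries, 28164 TPM (9804 to 34595), and ATP8 followed at 27413 TPM (19426 to 41846), with the highest value in any library. COX2 had a median of 20504 TPM, COX3 19910, ATP6 15285, ND4 11492, ND2 6889, ND1 6039 and CYTB 5467. ND5, the longest, was the lowest, with a median of 3172 TPM (1843 to 6627). The complex IV genes made up 36.1% to 50.2% of the summed TPM of the 10 genes, the complex V pair 25.7% to 40.6%, the complex I genes 17.4% to 24.6%, and CYTB 2.8% to 5.0%.

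The rank of ATP8, whose annotated length is 207 bases, depends on how length is corrected. The authors' deposited tables also give a mean normalized count per gene, and dividing this by annotated length places COX1 first in all 4 tables and ATP8 between rank 7 and rank 10. In the A549 normal-culture table, ATP8 had 60885 normalized counts per kilobase, against 293944 for COX1, 201727 for COX2 and 153995 for ATP6. The normalized count per kilobase that went with 1 TPM was 1.80 to 2.56 for ATP8 and 10.8 to 15.1 for the other 9 genes. ND4L, with 297 bases, lay between, at 4.70 to 5.74. The level of ATP8 against the other genes is therefore not settled by these files. The correction also differed between the tables of the lines. Divided by that of ATP6 in the same table, the ratio for ATP8 was 0.230 and 0.228 in A549 normal and oncosphere culture and 0.167 and 0.177 in H2023. A comparison of ATP8 between the lines thus moves with the correction. Within a table, the knockout minus wild-type log2 difference of ATP8 was 0.08 by limma from TPM and 0.23 in the authors' deposited table in A549 normal culture, -0.31 and -0.30 in A549 oncosphere, 0.26 and 0.28 in H2023 normal and -0.28 and -0.27 in H2023 oncosphere culture.

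The shares of the complexes move in the same way. By normalized count per kilobase, from the means of the authors' deposited tables, complex IV took 48.0% to 56.1% of the sum over the 10 genes, complex V 13.3% to 18.2%, complex I 22.6% to 30.5% and CYTB 4.2% to 5.2%. By mean TPM over the same 4 tables complex IV took 37.9% to 48.4% and complex V 28.2% to 37.4%. Complex IV had the largest share in all 4 tables by either measure, while complex V stood second by TPM and behind complex I by count per kilobase.

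In oncosphere culture the mitochondrially encoded genes took a larger share of a library's TPM than in normal culture, in both lines and both genotypes. Their summed TPM was 9.31% and 12.7% of the total in A549 wild type in normal culture and 16.5% and 18.8% in oncosphere culture. The A549 knockout libraries held 10.4% and 14.8% in normal culture and 14.96% and 15.7% in oncosphere culture. The share in H2023 wild type was 8.05% and 10.03% in normal culture and 19.9% and 20.01% in oncosphere culture. The H2023 knockout libraries held 8.24% and 9.75%, and 18.9% and 19.1%. The oncosphere libraries lay above the normal-culture libraries of the same line and genotype in each case, by the narrowest margin in the A549 knockout. The ratio of the group means was 1.60 in A549 wild type, 1.22 in A549 knockout, 2.21 in H2023 wild type and 2.12 in H2023 knockout. ATP8 made up 16.89% to 28.96% of the summed TPM of the 10 genes. These shares therefore carry its length correction, which differed between the tables of the lines.

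**Figure D1:**
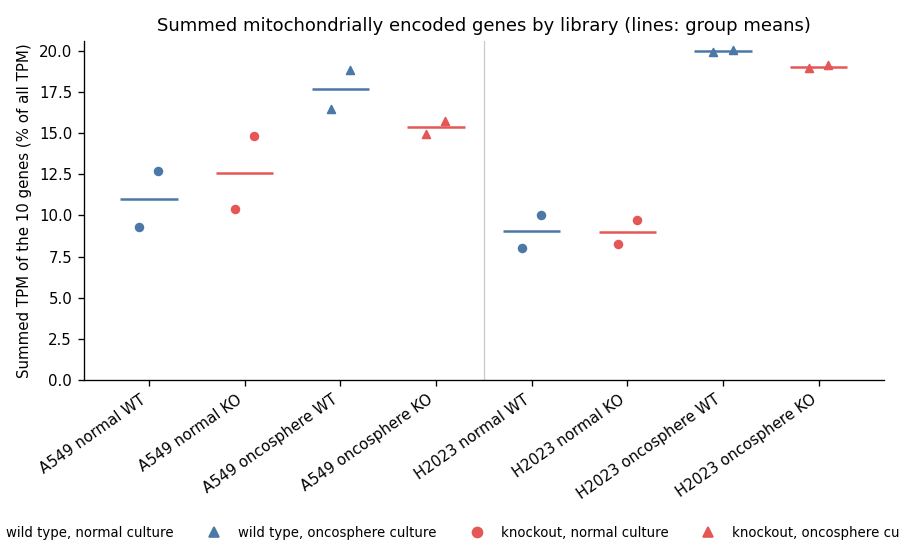
Summed TPM of the 10 mitochondrially encoded genes as a percentage of all TPM (vertical axis) in each library (points), by group (horizontal axis), with group means as lines. The H2023 oncosphere libraries sit between 18.9% and 20.01%, and the H2023 normal-culture libraries between 8.05% and 10.03%. The sums carry the length correction of ATP8, which differed between the lines.

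Each gene was tested with limma, two-sided, in a fit of log2(TPM + 1) to the 8 libraries of its line, with Benjamini-Hochberg adjustment over all 18227 genes and a threshold of 0.05. A log2 difference is oncosphere minus normal culture on that scale. Of the 10 genes, 7 rose and none fell in H2023 wild type, where 21.4% of all genes were called and 3.96% were called higher. In H2023 knockout, 8 rose and none fell (26.9% of all genes called, 7.68% called higher). In A549 wild type, 3 rose and none fell (40.6% called, 19.0% called higher), a share near that of all genes. In A549 knockout, limma called none of the 10 (20.8% of all genes called, 10.9% called higher), and 2 had an unadjusted p under 0.05 (34.1% of all genes). The median log2 difference of the 10 genes was 1.33, 1.31, 0.72 and 0.36 in the same order, beside medians of -0.18, -0.12, -0.01 and -0.01 over all genes.

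Both oncosphere libraries stood above both normal-culture libraries for all 10 genes in H2023 wild type, H2023 knockout and A549 wild type, and for 5 of 10 in A549 knockout. Over all genes this held for 14.6%, 22.7%, 33.7% and 30.6%. The number of calls depended on the libraries fitted. With only the 4 libraries compared, limma called 0 of the 10 genes in H2023 wild type (6 at an unadjusted p under 0.05), where 1105 genes were called in all, 6 in H2023 knockout, 4 in A549 wild type and 0 in A549 knockout (0 unadjusted). Leaving out any 1 of the 4 libraries compared left 2 to 4 calls in H2023 wild type (2 without normal-culture replicate 1) and 2 to 4 in H2023 knockout (2 without either normal-culture replicate). It left none in A549 wild type without oncosphere replicate 1, oncosphere replicate 2 or normal-culture replicate 1, and 1 without normal-culture replicate 2. In A549 knockout, 2 genes were called without normal-culture replicate 2.

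**Figure D2:**
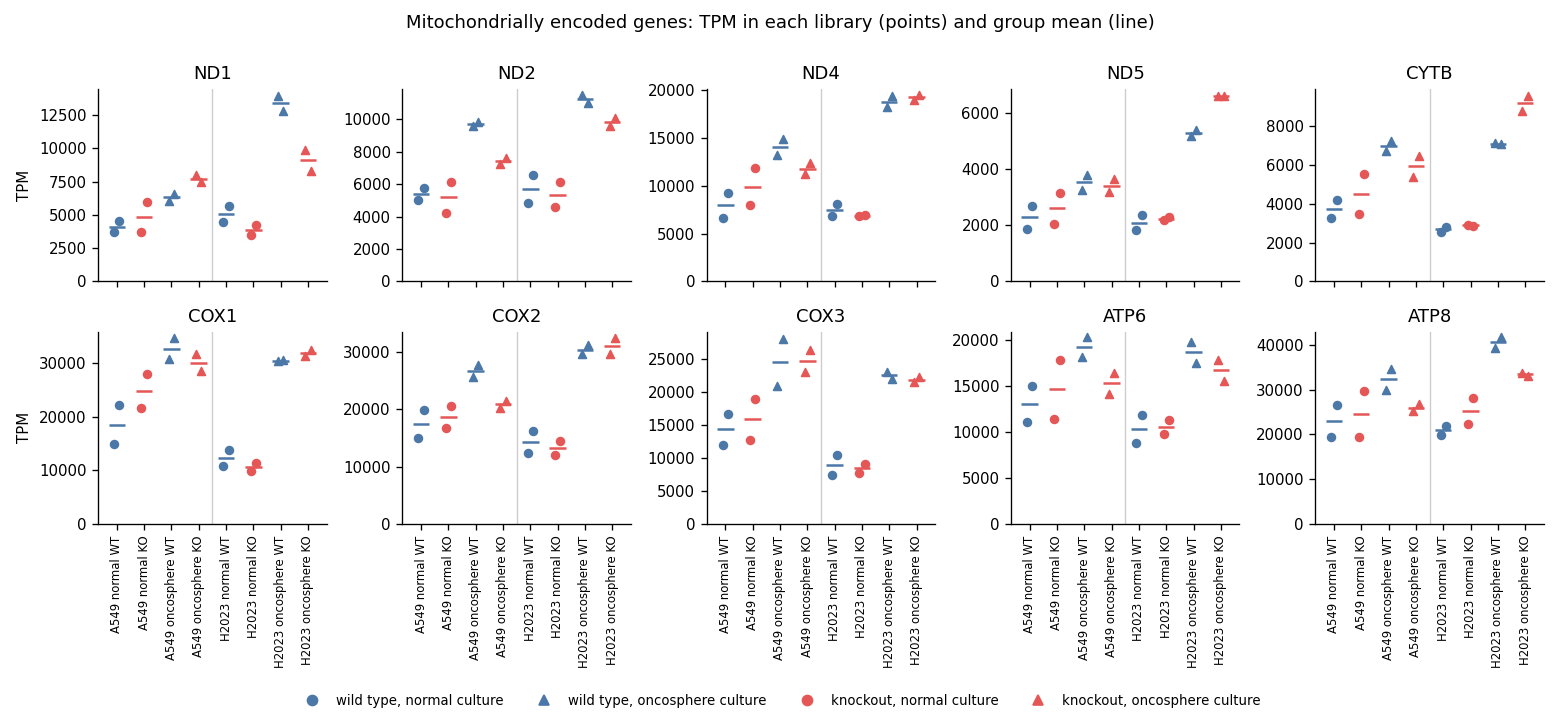
TPM (vertical axis, from 0, scaled for each gene) of the 10 mitochondrially encoded genes in each library (points), by group (horizontal axis), with group means as lines. In H2023, at the right of each panel, every oncosphere library lies above every normal-culture library of the same genotype.

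The complex I genes encode membrane subunits of the NADH dehydrogenase, and each was called in both H2023 comparisons. ND1 stood at 4439 and 5669 TPM in H2023 wild type in normal culture and at 13912 and 12828 in oncosphere culture, where limma gave a log2 difference of 1.41 (SE 0.24, Benjamini-Hochberg adjusted p = 0.0112). In H2023 knockout it stood at 3524 and 4224 against 9880 and 8299, a difference of 1.23 (SE 0.24). These groups were far apart, while in A549 ND1 was at 3710 and 4506 against 6077 and 6531 in wild type and at 3735 and 6000 against 7994 and 7452 in knockout, without passing the test. ND2, its neighbour on the genome, rose in A549 wild type, from 5035 and 5771 TPM to 9603 and 9819, a log2 difference of 0.85 (SE 0.23, limma adjusted p = 0.0199). It also rose in H2023 wild type, from 4846 and 6566 to 11478 and 10978 TPM (0.99, SE 0.26). In H2023 knockout it rose from 4567 and 6119 to 9587 and 10060 TPM (0.89, SE 0.26), and the cultures did not overlap in any of these.

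ND4 rose in 3 of the 4 comparisons, the exception being A549 knockout, where its values were 7978 and 11821 in normal and 11164 and 12351 in oncosphere culture and overlapped. The H2023 wild-type level of ND4 went from 6801 and 8049 TPM to 18154 and 19324, a difference of 1.34 (SE 0.25). The call in A549 wild type, at 0.84 (SE 0.29), was at the edge of the threshold, with a limma adjusted p of 0.0497. ND5, the lowest of the 10, went from 1843 and 2358 TPM to 5200 and 5411 in H2023 wild type and from 2184 and 2287 to 6627 and 6609 in H2023 knockout. Its log2 differences there were 1.35 (SE 0.18) and 1.57 (SE 0.18), with limma adjusted p of 0.00547 and 0.00214.

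CYTB, the catalytic subunit of complex III that carries its hemes of type b, had the smallest adjusted p of the 10 genes in both H2023 comparisons. It went from 2574 and 2829 TPM to 7119 and 7095 in H2023 wild type, and from 2922 and 2870 to 8809 and 9569 in H2023 knockout. The log2 differences were 1.40 (SE 0.17, limma adjusted p = 0.00452) and 1.66 (SE 0.17, limma adjusted p = 0.00162). The replicates of CYTB lay close together in these groups, and the oncosphere libraries stood well clear of the others. In A549 wild type CYTB went from 3300 and 4212 TPM to 6755 and 7254 and rose by 0.91 (SE 0.26), while in A549 knockout its values of 3473 and 5522 overlapped those of 5411 and 6492.

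COX1, the catalytic core of cytochrome c oxidase that reduces oxygen, rose in H2023 wild type from 10848 and 13861 TPM to 30301 and 30535, a log2 difference of 1.31 (SE 0.33). It rose in H2023 knockout from 9804 and 11449 to 31314 and 32394, a difference of 1.59 (SE 0.33). In the A549 wild type, COX1 stood at 14860 and 22162 against 30755 and 34595, a difference of 0.85 (SE 0.35) that missed the threshold (limma adjusted p = 0.0864). COX2, which holds the site where cytochrome c hands over its electrons, rose in H2023 knockout from 12020 and 14537 to 29748 and 32553 TPM (1.24, SE 0.35). The H2023 wild-type values of COX2 went from 12462 and 16296 to 29659 and 31182 TPM without a call (1.09, SE 0.35, limma adjusted p = 0.0698). COX3, a core subunit without a redox centre, rose in H2023 wild type from 7342 and 10409 to 23031 and 21969 TPM (1.36, SE 0.31), and in H2023 knockout from 7735 and 9126 to 21400 and 22217 TPM (1.38, SE 0.31).

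The complex V genes differed least between the cultures. ATP6, which forms part of the proton channel of ATP synthase, stood at 8850 and 11800 TPM in normal and 19800 and 17520 in oncosphere culture in H2023 wild type. Its log2 difference there was 0.87 (SE 0.30, limma adjusted p = 0.0875), and in H2023 knockout it was 0.66 (SE 0.30). ATP8, a small membrane subunit of the same complex, went from 19957 and 21846 to 39412 and 41846 TPM in H2023 wild type, a difference of 0.96 (SE 0.39). In H2023 knockout it went from 22411 and 28045 to 33713 and 33142, a difference of 0.42 (SE 0.39). Neither gene was called in any culture comparison by this fit. Both were called in H2023 wild type among genes with a mean TPM of at least 1, without the variance trend and in the fit of all 16 libraries. Across the 16 libraries, on the TPM scale, the highest value was 2.30 times the lowest for ATP6 and 2.15 times for ATP8, against 2.71 to 3.95 times for the other 8 genes.

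**Figure D3:**
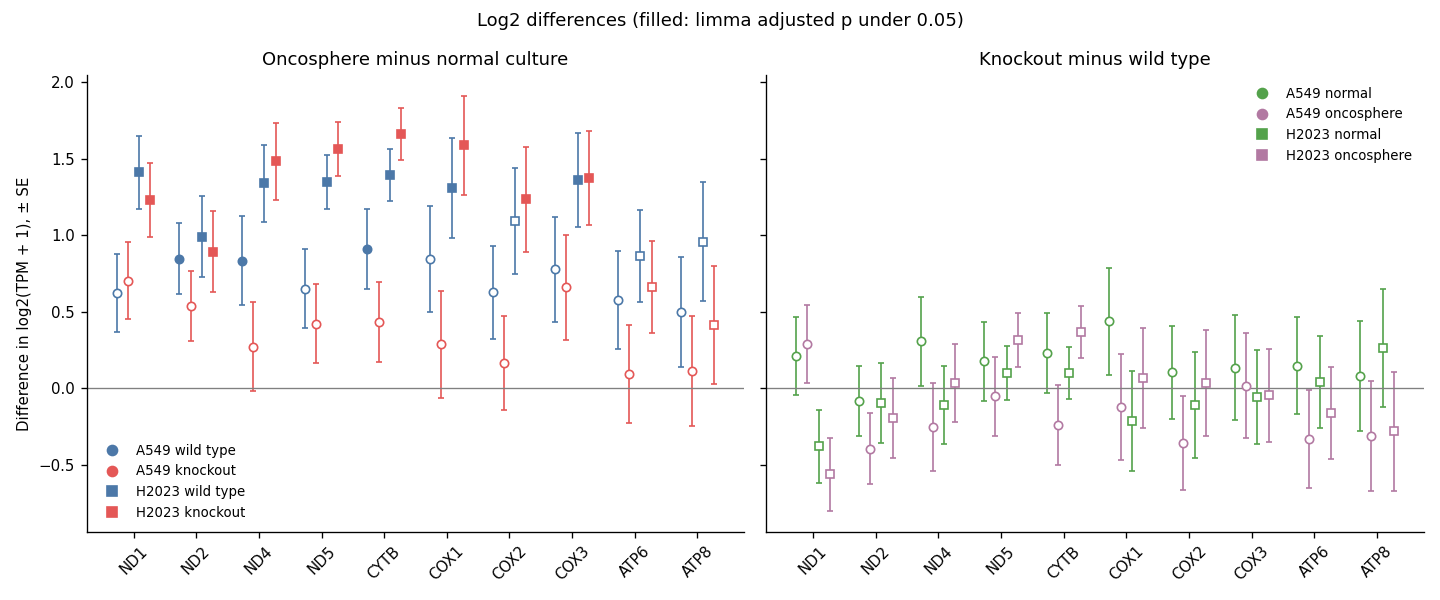
Log2 differences (vertical axis, in units of log2(TPM + 1), with SE as bars) of the 10 genes (horizontal axis), for oncosphere minus normal culture (left) and knockout minus wild type (right). Filled symbols passed limma with an adjusted p under 0.05: 7 and 8 genes in the H2023 culture comparisons, 3 in A549 wild type, and none in the knockout comparisons.

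Because TPM sums to a fixed total, a larger mitochondrial share lowers every other gene. When each library was scaled instead to its nuclear TPM, the median of all genes moved from -0.18 to -0.02 in H2023 wild type and from -0.12 to 0.02 in H2023 knockout. The median difference of the 10 genes became 1.57 and 1.53 in H2023 wild type and knockout, and 0.86 and 0.42 in A549. The calls were then 7 and 8 in H2023 and 5 and 0 in A549, all higher. The split of all calls moved with it, from 721 higher and 3180 lower to 1048 and 1278 in H2023 wild type. It went from 1400 and 3495 to 2031 and 1972 in H2023 knockout, and from 3460 and 3932 to 4173 and 3083 in A549 wild type.

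Whether the culture difference itself depended on line or genotype was tested with interaction terms. None of the 10 genes passed in the comparison of H2023 with A549 wild type, in a fit over all 16 libraries, where 14.1% of all genes were called (690 higher and 1884 lower, or 1087 and 1481 with median-of-ratios scaling). At an unadjusted p under 0.05, 1 of the 10 was counted, beside 29.1% of all genes. The differences of the differences were 0.14 for ND2 to 0.79 for ND1, all positive, and the smallest limma adjusted p was 0.144 (ND1, SE 0.34). None passed for knockout against wild type in A549 (6.65% of genes called by limma), nor did any at an unadjusted p under 0.05 (25.3% of genes). Over all genes 642 calls were higher and 570 lower, or 403 and 650 with median-of-ratios scaling. Among the 10 genes, 9 values were below 0, and ND4 had -0.56 (SE 0.41). In H2023 no gene of the tables passed that interaction (0.00% called by limma, 7.10% at an unadjusted p under 0.05, none of the 10 among them). So a call in H2023 and none in A549 does not show that the lines differ.

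None of the 10 genes was called for the knockout in any of the 4 comparisons by limma. In A549 this stood beside 15.4% of all genes called in normal and 19.5% in oncosphere culture, and in H2023 beside 0.806% and 1.54%. The calls in H2023 oncosphere culture split into 145 higher and 136 lower, or 160 and 238 with median-of-ratios scaling. At an unadjusted p under 0.05 none of the 10 genes was counted either, while the shares of all genes were 31.7%, 32.8%, 16.5% and 20.0%. The median log2 difference (knockout minus wild type) was 0.16 in A549 normal, -0.25 in A549 oncosphere, -0.08 in H2023 normal and -0.01 in H2023 oncosphere culture. The standard errors of single genes were 0.17 to 0.39, so differences of this size could not be told from the spread between replicates.

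The groups of A549 normal culture overlapped for all 10 genes, while 27.2% of all genes lay wholly above and 34.6% wholly below. In A549 oncosphere culture both knockout libraries were below both wild-type libraries for 6 genes and above for 1 (27.8% and 32.7% of all genes). COX2, for example, stood at 25716 and 27756 TPM in wild type and 20325 and 21423 in knockout (-0.36, SE 0.31), and ND2 at 9603 and 9819 against 7212 and 7580 (-0.39, SE 0.23). The authors' deposited table put these genes past its own adjusted threshold, COX2 at a log2 value of -0.38 (adjusted p = 0.026) and ND2 at -0.42 (adjusted p = 0.0075), in a table where 20.7% of genes passed. COX3 changed sign there with the processing: 0.02 (SE 0.34) by limma, -0.02 in the authors' deposited table.

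In H2023 normal culture both knockout libraries lay above both wild-type libraries for 2 genes and below for 1 (26.1% and 24.5% of all genes). In oncosphere culture they lay above for 3 and below for 3 (28.6% and 18.9%). ND5 and CYTB were among those above in oncosphere culture: CYTB at 8809 and 9569 TPM against 7119 and 7095 in wild type (0.37, SE 0.17, limma adjusted p = 0.292), and ND5 at 6627 and 6609 against 5200 and 5411 (0.32, SE 0.18). The authors' deposited tables called none of the 10 genes in either normal culture (22.1% of genes called in A549, 10.8% in H2023) and ND1 alone in H2023 oncosphere culture (5.07%). The authors' deposited table gives ND1 a log2 value of -0.64 there (adjusted p = 0.016).

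ND1 was the gene whose share of the summed TPM of the 10 varied most, with a coefficient of variation (CV) of 22.7% over the libraries, against 6.5% for COX2, the steadiest. In H2023 oncosphere culture it stood at 13912 and 12828 TPM in wild type and 9880 and 8299 in knockout, without overlap, a difference of -0.56 (SE 0.24, limma adjusted p = 0.264). In A549 oncosphere culture it stood at 6077 and 6531 in wild type and 7994 and 7452 in knockout, a difference of 0.29 (SE 0.25). The test of the difference between the lines gave -0.85 (SE 0.34, limma adjusted p = 0.111). It did not pass. With the replicate number as a block the same difference had an SE of 0.22 and a limma adjusted p of 0.0286. Same-numbered libraries were not shown to be pairs, and over all genes the block moved the calls of this test from 2966 to 3435. The test without the block was not passed by any other of the 10 genes in oncosphere or normal culture, where 16.3% and 12.1% of all genes passed. At an unadjusted p under 0.05, 1 of the 10 was counted in oncosphere and 0 in normal culture (29.6% and 27.8% of all genes). The ratio of ND1 to ND2, which lies next to it, was 0.63 and 0.67 in A549 oncosphere wild type and 1.11 and 0.98 in knockout. In H2023 oncosphere culture it was 1.21 and 1.17 in wild type and 1.03 and 0.83 in knockout. In normal culture the ratio was 0.74 and 0.78 against 0.88 and 0.98 in A549, and 0.92 and 0.86 against 0.77 and 0.69 in H2023. The ratio was thus higher in the knockout libraries of A549 and lower in those of H2023 in both cultures. The ratio of ND1 to ND2 was chosen after its values were seen and was not tested. MT-RNR2, on the other side of ND1, moved the same way in oncosphere culture. It stood at 11973 and 13865 TPM in wild type and 19666 and 16755 in knockout in A549. In H2023 it stood at 9366 and 11116 against 6204 and 8309. The mean ratio of MT-RNR2 to ND1 was 2.05 and 2.35 in A549 and 0.77 and 0.815 in H2023. In normal culture the MT-RNR2 values of A549 overlapped.

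**Figure D4:**
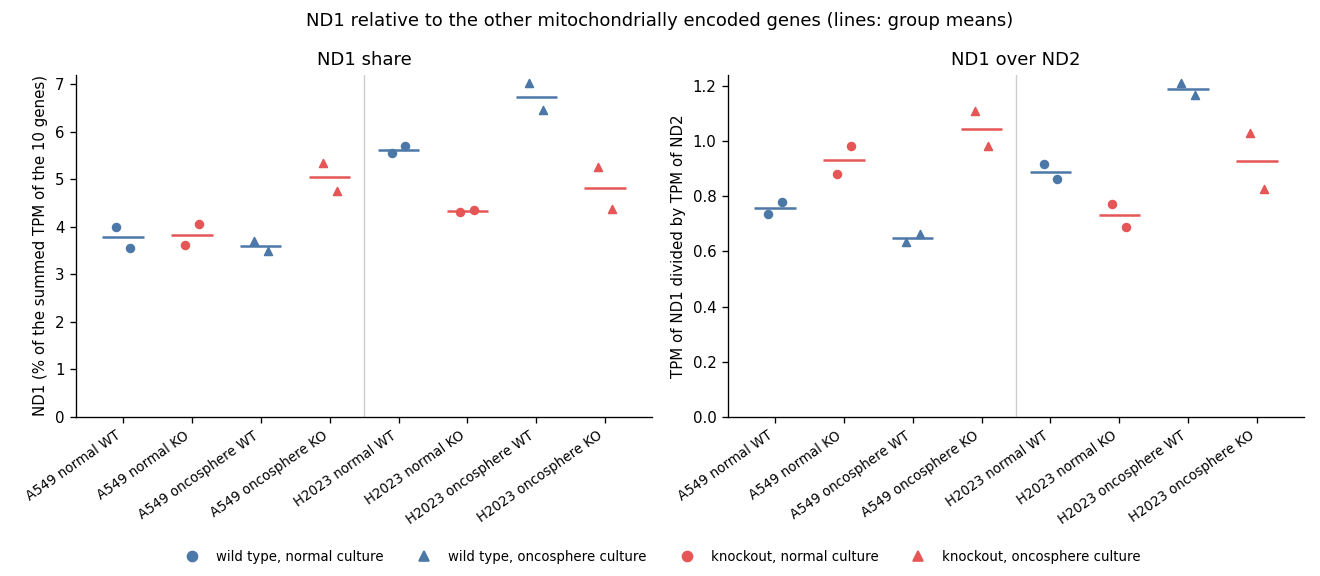
ND1 as a percentage of the summed TPM of the 10 genes (left) and TPM of ND1 divided by TPM of ND2 (right) in each library (points), by group (horizontal axis), with group means as lines. The ratio is higher in the knockout than in the wild-type libraries of A549 and lower in those of H2023, in both cultures.

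Between the wild types of the lines, in the fit over all 16 libraries, limma called no gene of the 10 in normal culture, where 1 had an unadjusted p under 0.05 (41.5% of all genes called, 49.4% unadjusted). The calls split into 4847 higher and 2720 lower in H2023, or 3748 and 3473 with median-of-ratios scaling. ND1 alone was called in oncosphere culture, at a log2 difference of 1.08 (H2023 minus A549, SE 0.24, limma adjusted p = 0.00273), where 47.8% of all genes were called. The other 9 genes lay between -0.11 and 0.58 there, with ND5 nearest to the threshold (0.58, SE 0.23, limma adjusted p = 0.0516). A call is common among all genes in this comparison.

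By group, ordered from low to high mean, the 4 normal-culture groups came before the 4 oncosphere groups for all 10 genes. The lowest group was H2023 knockout in normal culture for ND1, ND4, COX1, COX2 and COX3, and H2023 wild type in normal culture for ND5, CYTB, ATP6 and ATP8. The exception was ND2, lowest in A549 knockout. Of the 7 pairs of neighbouring groups in each order, 3 to 7 had overlapping values. All 7 overlapped for ATP6, so no neighbours in its order could be told apart. For ND1 and CYTB 3 of 7 overlapped. The highest group did not overlap the next for either: H2023 oncosphere wild type for ND1 and H2023 oncosphere knockout for CYTB.

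The 10 genes moved closely together over the 16 libraries. Pearson's r between 2 of them on the log2 scale had a median of 0.884 over 45 pairs, from 0.693 for ATP8 and COX1 to 0.975 for COX2 and ND4. All pairs share the same libraries and the same fixed sum, so these are descriptions. Among genes that share an mRNA, ATP8 over ATP6 ranged from 1.63 to 2.48 (CV 14.7%), a ratio that carries the length correction of ATP8, and ND4L over ND4 from 1.07 to 1.46 (CV 8.1%). ND4 over ND5, on separate mRNAs, was about as steady (2.86 to 4.003, CV 9.9%). The ratio of ND2 to COX1 ranged from 0.20 to 0.53 (CV 29.8%). The reads of overlapping bases may be assigned to either gene, and how the authors' counting divided them is not given in the sources used here.

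Nuclear genomes carry copies of mitochondrial genes whose reads can be assigned to either place, and 4 such copies of 16 looked for were in the tables. MTATP6P1 reached 1360 to 2428 TPM in A549, and MTND2P28 98.6 to 213 TPM. In the culture comparisons, copies were called higher in 2 of 4 (A549 wild type), 1 (A549 knockout), 3 (H2023 wild type) and 2 (H2023 knockout) cases, and none lower. Their median log2 differences were 0.86, 0.52, 1.48 and 0.94. The copies thus moved in the same direction as the genes they resemble, and how reads were divided between them is not known here, so the levels of ND1, ND2, COX1 and ATP6 carry this uncertainty.

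Of the other genes of the mitochondrial genome in the tables, several were called higher in oncosphere culture. Of ND3, ND4L, ND6, MT-RNR1 and MT-RNR2, none was called lower in any culture comparison. Of the 5, 4 were called higher in both H2023 comparisons, all but ND3, and in each A549 comparison ND3 alone. ND6, the only protein gene read from the other strand, rose by 1.43 (SE 0.19) in H2023 wild type and 1.78 (SE 0.19) in H2023 knockout. MT-RNR2, the large ribosomal RNA, stood lower in H2023 than in A549 wild type in normal culture, at 3779 and 5373 against 9188 and 13168 TPM, and this line difference passed (-1.29, SE 0.27, limma adjusted p = 0.00231). As ribosomal RNA carries little poly(A) tail, its level in an mRNA library is not a measure of its amount.

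The nuclear genes that make and keep mitochondrial RNA were called lower more often than higher in these comparisons, except that for RNA processing genes 3 were called higher and 0 lower in A549 knockout with either scaling, and 1 higher and 0 lower in H2023 wild type with median-of-ratios scaling. Over all genes, 21.6% were called lower in oncosphere culture in A549 wild type, 17.4% in H2023 wild type, 19.2% in H2023 knockout and 9.87% in A549 knockout, and the counts of the lists are read against these shares. Of 19 genes of mitochondrial transcription and genome maintenance, 9 were called lower in oncosphere culture in A549 wild type, 9 in H2023 wild type, 8 in H2023 knockout and 6 in A549 knockout, and 1, 0, 0 and 2 were called higher. TFAM, which bends and packs mitochondrial DNA and starts its transcription, stood at 69.3 and 66.6 TPM in normal and at 38.1 and 34.3 in oncosphere culture in A549 wild type and fell by 0.89 (SE 0.10, limma adjusted p = 0.000434). It also fell in A549 knockout (-0.35, SE 0.10), H2023 wild type (-0.54, SE 0.10) and H2023 knockout (-0.75, SE 0.10). POLRMT, the polymerase itself, fell in all 4 comparisons, by 0.51, 0.46, 0.61 and 0.46 in the same order (SE 0.13 to 0.14). TFB2M was not called in any of them (-0.35 to 0.07), and TEFM, an elongation factor, only in A549 wild type (-0.56, SE 0.17). TFAM, when scaled to nuclear TPM, was still called in A549 wild type and H2023 knockout, and neither POLRMT nor TEFM was called in any of the 4.

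Of 27 genes of mitochondrial RNA processing, stability and decay, 17 were called lower in A549 wild type, 9 in H2023 wild type, 13 in H2023 knockout and 2 in A549 knockout, with 1 higher (in A549 knockout). LRPPRC, which keeps mitochondrial mRNAs stable, fell in A549 wild type (-0.40, SE 0.11), H2023 wild type (-0.56, SE 0.12) and H2023 knockout (-0.74, SE 0.12). Its partner SLIRP fell in A549 wild type (-0.78, SE 0.12) and H2023 knockout (-0.80, SE 0.14). MTPAP, the poly(A) polymerase of mitochondria, fell in both wild types (-0.73, SE 0.17, and -0.49, SE 0.14). Of the decay enzymes, PNPT1 was called in none of the comparisons, while SUPV3L1 fell in H2023 wild type (-0.45, SE 0.10) and H2023 knockout (-0.36, SE 0.10). The calls that held when scaled to nuclear TPM were LRPPRC in H2023 knockout, SLIRP in A549 wild type and H2023 knockout, and MTPAP in A549 wild type.

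TFAM belongs to both lists. In all 4 comparisons, leaving out any 1 of the libraries compared made the counts called lower smaller in both lists. The counts also depended on the scaling. Scaled to nuclear TPM, RNA processing genes called lower numbered 13 of 27 in A549 wild type, 1 in H2023 wild type, 7 in H2023 knockout and 0 in A549 knockout. For transcription and genome maintenance the numbers were 6, 2, 5 and 3 of 19. Over all 18227 genes, 3083, 1278, 1972 and 1500 were then called lower in the same order. With only the 4 libraries compared, 0 transcription genes and 1 RNA processing gene were called lower in H2023 wild type. The median log2 difference of the transcription list stayed below 0 under this scaling in all 4 comparisons, at -0.21, -0.12, -0.13 and -0.11. That of the RNA processing list was -0.32, -0.10, -0.23 and, in A549 knockout, 0.03.

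The list of 78 mitochondrial ribosomal proteins, which translate the 10 mRNAs, was also called lower more often than higher. In A549 wild type and H2023 knockout the share called lower was above that of all genes, while in A549 knockout and H2023 wild type it was nearer to it. In oncosphere culture 43 were called lower in A549 wild type, 8 in A549 knockout, 19 in H2023 wild type and 45 in H2023 knockout, with 0, 1, 1 and 1 higher and medians of -0.41, -0.07, -0.26 and -0.41. MRPL11, a protein of the large subunit, stood at 119 and 107 TPM in normal and 45.5 and 50.5 in oncosphere culture in A549 wild type. Fewer ribosomal proteins were called lower in each comparison when any 1 of the libraries compared was left out. With all libraries kept and scaled to nuclear TPM, the numbers called lower were 28, 7, 3 and 14 and the medians -0.27, 0.00, -0.02 and -0.19. Of 17 translation factors, 6, 0, 3 and 6 were called lower and 0, 1, 1 and 1 higher in the same order of comparisons, in H2023 wild type a share like that of all genes. Of 17 genes of import and the outer membrane, 11, 0, 8 and 13 were called lower and none higher, or 10, 0, 2 and 6 lower scaled to nuclear TPM. Among these VDAC1, the outer membrane channel, fell from 368 and 381 to 188 and 168 TPM in H2023 wild type.

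**Figure D5:**
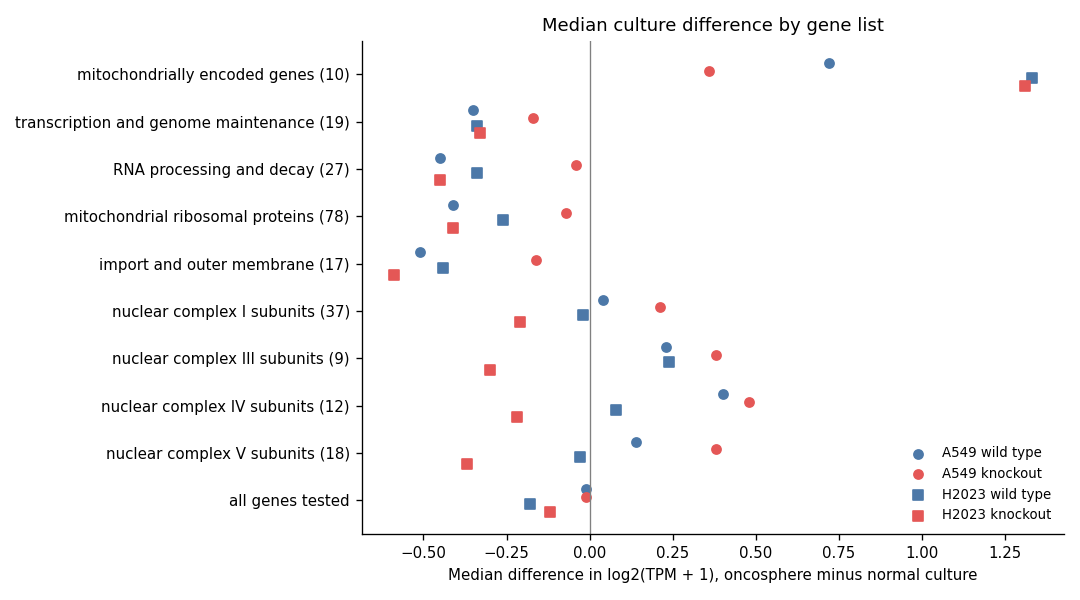
Median log2 difference (horizontal axis, oncosphere minus normal culture, log2(TPM + 1)) of the mitochondrially encoded genes, of nuclear gene lists and of all genes tested (vertical axis, numbers of genes in parentheses), with 1 point for each line and genotype. The mitochondrially encoded genes lie at 0.36 to 1.33, and the lists of transcription, RNA processing, ribosomal and import genes below 0, except under scalings that are not plotted. With nuclear scaling RNA processing came to 0.03 and ribosomal proteins to 0.00 in A549 knockout, and with median-of-ratios scaling RNA processing came to 0.01 there and ribosomal proteins to 0.02 in H2023 wild type.

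The nuclear-encoded subunits of the same complexes are set beside the shares of all genes called higher, 19.0% in A549 wild type, 10.9% in A549 knockout, 3.96% in H2023 wild type and 7.68% in H2023 knockout. In A549 knockout, 7 of 37 complex I, 6 of 9 complex III, 7 of 12 complex IV and 10 of 18 complex V subunits were called higher in oncosphere culture and none lower, or 1, 2, 5 and 4 with only the 4 libraries compared. Each of these counts called higher was also smaller than in the full fit when any 1 of those libraries was left out. In A549 wild type the numbers higher were 7, 3, 5 and 2, with 2 of complex I lower. There complex I was at the share of all genes and complex V below it. Scaled to nuclear TPM the numbers higher in A549 wild type were 13, 5, 9 and 9. COX6C, for instance, rose from 343 and 353 to 581 and 533 TPM in A549 wild type (0.68, SE 0.10). In H2023 knockout none was called higher, and 14, 3, 2 and 9 were called lower, while 8 of the 10 mitochondrially encoded genes rose. Fewer subunits of complexes I and V were called lower in H2023 knockout when any 1 of the libraries compared was left out. UQCRC1, a core subunit of complex III beside CYTB, fell in H2023 knockout from 190 and 182 to 126 and 111 TPM (-0.65, SE 0.11). For H2023 wild type 1 of complex III was higher and 1 of complex I lower. These numbers, too, depend on the scaling. Scaled to nuclear TPM, 3, 2, 1 and 1 were lower in H2023 knockout, with 1 of complex I and 1 of complex III higher, and 4, 5, 1 and 2 were higher in H2023 wild type with none lower. The median of complex I then went from -0.21 to 0.01 in H2023 knockout and from -0.02 to 0.22 in H2023 wild type. The culture by line interaction, tested gene by gene in wild type (3.79% of all genes called higher in H2023 and 10.3% lower), called 1 of 37 complex I subunits higher and 2 lower, 1 of 18 complex V subunits lower, and none of complexes III and IV. Of 4 complex II subunits, which are all nuclear-encoded, 1 was higher in each A549 comparison and 2 were lower in H2023 knockout. Of 41 assembly factors, 3, 5, 2 and 2 were higher and 12, 2, 5 and 9 lower in A549 wild type, A549 knockout, H2023 wild type and H2023 knockout. The share called lower was below that of all genes in A549 knockout and H2023 wild type.

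PPARGC1A, a coactivator that drives mitochondrial biogenesis, was among 13 biogenesis regulators. It rose in oncosphere culture in A549 wild type, from 4.66 and 8.01 to 18.4 and 14.4 TPM (1.27, SE 0.26), and in A549 knockout, from 3.03 and 4.54 to 16.7 and 15.98 TPM (1.87, SE 0.26). Its H2023 wild-type level was 10.8 and 19.6 against 25.4 and 58.6 TPM (1.35, SE 0.51, limma adjusted p = 0.112). In the H2023 knockout it was nearly absent, at 0.21 and 0.16 TPM in normal and 1.42 and 4.02 in oncosphere culture. This was lower than wild type by limma in both cultures (-3.72, SE 0.51, adjusted p = 0.0426, and -3.51, SE 0.51, adjusted p = 0.0388). With only the 4 libraries compared the limma adjusted p for PPARGC1A was 0.110 and 0.231, and the call was also lost without any 1 of those libraries. In the same oncosphere libraries the mitochondrially encoded genes held 18.9% and 19.1% of TPM in knockout and 19.9% and 20.01% in wild type. Of the whole list, 3, 2, 1 and 0 regulators were called higher and 6, 3, 4 and 5 lower in A549 wild type, A549 knockout, H2023 wild type and H2023 knockout.

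The nuclear lists gave different counts in the 4 knockout comparisons. In A549 normal culture, where 8.83% of all genes were called lower, 26 of 78 mitochondrial ribosomal proteins were called lower in the knockout libraries and none higher, along with 9 of 27 RNA processing genes, 14 of 41 assembly factors (1 higher), 3 of 19 transcription genes and 4 of 17 translation factors. Without any 1 of the 4 libraries compared, 3 to 13 ribosomal proteins and 0 to 6 RNA processing genes were called lower. The counts called lower of assembly factors, transcription genes and translation factors also became smaller when any 1 of those libraries was left out. With all libraries, LRPPRC (-0.46, SE 0.11), SLIRP (-0.53, SE 0.12) and TFB2M (-0.48, SE 0.13) fell in A549 normal culture. Scaled to nuclear TPM, 19 ribosomal proteins, 8 RNA processing genes and 7 assembly factors were called lower. The 10 genes had a median of 0.16 in the same libraries, against -0.37 for the ribosomal proteins and -0.03 for all genes. Other signs differed between the same libraries. Of 9 genes that mark RNA quality or library make-up, all 9 had values above 0 for knockout minus wild type (median 0.56), 6 lay wholly above the wild type and 1, the histone gene H1-2, was called, while 4 of 7 lung epithelial markers were called lower and 1 higher. Their part in the counts was not tested. In A549 oncosphere culture (9.39% of all genes called higher, 10.1% lower) 3 ribosomal proteins were lower and 2 higher, and 3 RNA processing genes were higher. In H2023 normal culture 0 to 2 genes of each nuclear list were called, beside 0.258% of all genes called higher and 0.549% lower.

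In H2023 oncosphere culture the numbers of subunits called lower in the knockout libraries were 3 of 37 for complex I, 1 of 4 for complex II, 3 of 9 for complex III, 2 of 12 for complex IV and 5 of 18 for complex V, and none was called higher, beside 0.746% of all genes called lower and 0.796% higher. These calls rested on the fit. With the replicate block 1 subunit, of complex IV, was called lower, while the calls over all genes went from 281 to 30. With only the 4 libraries compared no gene was called. These lists had medians of -0.25, -0.56, -0.50, -0.38 and -0.40, beside 0.06 for all genes and -0.01 for the 10 mitochondrially encoded genes. COX5B, a nuclear partner of COX1 and COX2, stood at 141 and 162 TPM in wild type and 69.4 and 69.7 in knockout (-1.11, SE 0.12). ATP5MC3, a subunit of the ring that turns beside ATP6, stood at 220 and 206 against 94.6 and 69.8 (-1.38, SE 0.16). LRPPRC was also lower (-0.79, SE 0.12, limma adjusted p = 0.0426). With the replicate block the limma adjusted p was 0.0494 for COX5B, 0.0513 for ATP5MC3 and 0.0663 for LRPPRC. In H2023 normal culture no subunit of the complexes was called.

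Stress genes that respond to mitochondrial dysfunction were counted as well. Of 15, 4 were called higher and 2 lower in oncosphere culture in A549 wild type, 1 and 3 in A549 knockout, 2 and 1 in H2023 wild type and 2 and 2 in H2023 knockout. Over all genes, 19.0%, 10.9%, 3.96% and 7.68% were called higher in the same order. The shares called lower were 21.6%, 9.87%, 17.4% and 19.2%. In A549 oncosphere culture 8 of the 15 stress genes were lower in the knockout libraries and none higher, beside 10.1% and 9.39% of all genes. Of 9 genes that mark RNA quality or library make-up, 5, 0, 1 and 1 were higher and 1, 2, 1 and 2 lower in the culture comparisons of A549 wild type, A549 knockout, H2023 wild type and H2023 knockout. These counts, too, stand beside the shares of all genes given above for the culture comparisons. The nuclear RNA MALAT1 rose from 43.6 and 45.7 to 74.2 and 67.7 TPM in H2023 wild type and from 46.9 and 49.2 to 152 and 120 in H2023 knockout. ACTB, the cytoskeletal actin, fell in all 4 comparisons, for example from 4803 and 4877 to 2232 and 2151 TPM in A549 wild type. The part of these genes in the culture difference of the mitochondrially encoded genes was not tested.

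Among 8753 genes outside the mitochondrial genome that passed a minimum of 10 TPM on the mean and carry a symbol, the 5 whose log2 level was most like the mean of the 10 genes over the 16 libraries were MTND2P28 (r = 0.945), which is a nuclear copy of ND2, SLC50A1 (0.919), LPIN1 (0.911), GGT7 (0.909) and IDI1 (0.905), an enzyme of isoprenoid synthesis. The 5 most opposite were CNOT10 (-0.943), PSME3IP1 (-0.940), RPS15 (-0.938), EGFR (-0.933) and C7orf50 (-0.931). EGFR encodes the receptor of epidermal growth factor and RPS15 a protein of the cytosolic ribosome. TFAM had r = -0.804 and POLRMT -0.636, against 0.472 for PPARGC1A. All of these share the contrast between cultures in the same libraries, and the highest of many correlations is high by selection.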

How the data were processed

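Libraries of messenger RNA from A549 and H2023 cells were sequenced, and 4 deposited tables give 18227 genes each (18361 rows, of which 119 identifiers repeat with identical values). HISAT2 and StringTie on GRCh38 are named in the submitters' processing notes, without versions or roles. The counting program and annotation are not given in the sources used here. The authors deposited TPM per library, recognised from column sums of 991838 to 998125, and, in columns named as DESeq2 names them per the file headers, a mean normalized count, a log2 fold change, a test score and a p-value with its adjusted p-value for knockout against wild type. The deposited score is opposite in sign to the deposited log2 value and was not used. TPM keeps no depth, so depth per library is unknown and no counting interval is given.

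Differences were computed from TPM with limma 3.58.1 (R 4.3.3), letting the variance follow mean level, on values of log2(TPM + 1), which understates changes of low genes. Knockout, culture and their interaction were fitted to the 8 libraries of a line, and contrasts between lines to all 16. P-values are two-sided and Benjamini-Hochberg adjusted over all genes, with a threshold of 0.05. In simulated data of 18227 genes, all groups shared the same level for each gene apart from the changed genes. The noise was normal and independent between genes, and the changed genes were drawn only from those above a minimum level. On these data the A549 fit recovered 69 of 100 genes changed by 1 on the log2 scale. It recovered 94 of 100 changed by 2, with 9 false calls. The H2023 fit recovered 57 and 90 of 100, with 8 false calls. These numbers do not cover changes of low genes or data in which many genes differ between the groups. Whether these numbers hold for the mitochondrially encoded genes, whose normal-culture replicates differed by a shared shift, was not tested. Alternatives were another pseudocount, a filter on low values, 2 scalings, no variance trend, other sets of libraries, a replicate block, leaving out each library and the authors' table.

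All 10 genes are named, with 10 factors of mitochondrial RNA and biogenesis. From each other gene list at most 3 called genes per comparison qualified, those with the largest change among genes with a mean of at least 10 TPM, and some of these are shown. The 10 genes, the lists and the tests were chosen with earlier results of these data known. Sequences and coordinates come from GENCODE 29 transcripts and annotation on GRCh38.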

Additional observations from a re-analysis of the deposited data

Results flagged for a closer look

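For 5 genes the share of the summed TPM of the 10 mitochondrially encoded genes moved one way with the knockout in A549 and the other way in H2023, with both knockout libraries on the same side of both wild-type libraries in each line. All 10 genes were searched in both cultures, and each of the 5 met this rule in 1 culture only. How often such splits arise by chance between so few libraries was not tested. These differences between the lines were not tested on the share. The knockout minus wild-type difference of the ND1 share was 1.46 percentage points in A549 and -1.92 in H2023 in oncosphere culture. In the same culture it was -0.29 and 0.72 for ND4, and -1.58 and 1.16 for COX2. In normal culture it was 3.17 in A549 and -1.83 in H2023 for COX1, and -1.51 and 4.74 for ATP8. The shares of 1 library sum to a fixed total, so they are not independent of each other. The ATP8 share rests on its TPM, whose length correction differed between the tables of the lines.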

How the results depend on the processing

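Leaving out the lowest-level genes, changing the scaling or pooling the spread differently moved the counts of called genes among the 10 but no direction of a called culture difference. In A549 wild type the culture count was 3, and it was 7 among genes with a mean TPM of at least 1, 5 with either scaling, 6 without the variance trend, 5 in the fit of all 16 libraries, and 0 to 1 without each replicate in turn. In A549 knockout it was 1 with the filter and 0 to 2 without each replicate. In H2023 wild type the count was 7, and it was 0 with only the 4 libraries compared. It was 10 among genes with a mean TPM of at least 1, without the variance trend and in the fit of all 16 libraries. In H2023 knockout the count was 8, with 6 for only the 4 libraries compared and 9 with the filter or without the trend. The authors' deposited table called 2 of the 10 for the knockout in A549 oncosphere and 1 in H2023 oncosphere culture, where limma called none. Between the lines in normal culture the count was 1 with the filter, 2 with median-of-ratios scaling and 2 without the variance trend, and in oncosphere culture it was 2 with the filter, with nuclear scaling and without the trend. As a share of nuclear TPM, the summed level was 10.16 for H2023 normal knockout, 22.62 and 19.16 for A549 oncosphere wild type and knockout, and 26.72 and 25.07 for H2023 oncosphere wild type and knockout. The cause of these shifts was not tested.

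The labels do not say that a replicate number marks a shared culture, and same-numbered libraries were not shown to be pairs. Over 14808 genes the deviations of wild type and knockout with the same number correlated at 0.073 and 0.131 in A549 and 0.026 and 0.461 in H2023, normal and oncosphere culture, and those of the cultures at 0.121 and 0.096 in A549 wild type and knockout and 0.162 and 0.134 in H2023. Between the lines the correlations were -0.060 to 0.044. Pairing in H2023 oncosphere culture, where the value was highest, cannot be settled from 2 libraries a group. With the replicate block, the culture counts were 6 in A549 wild type, 0 in A549 knockout, 5 in H2023 wild type and 6 in H2023 knockout. The block gave 2 between the lines in oncosphere culture, and 1 for the knockout by line test in oncosphere culture (ND1). Over all genes the H2023 knockout calls went from 147 to 34 in normal and from 281 to 30 in oncosphere culture with the block, and to 0 in both with only the 4 libraries compared.

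Knockout differences near 0 changed sign, none of them called. COX3 in A549 oncosphere culture was -0.018 with nuclear scaling, -0.041 with median-of-ratios scaling and -0.023 in the authors' deposited table. In H2023 oncosphere culture the last 2 gave -0.042 and -0.049 for ND4, -0.011 and -0.018 for COX1, and -0.044 and -0.039 for COX2. Without each replicate in turn, the knockout difference in A549 normal culture ranged from -0.131 to 0.553 for ND1, -0.347 to 0.182 for ND2, -0.134 to 0.489 for ND5, -0.102 to 0.567 for CYTB, -0.103 to 0.313 for COX2, -0.147 to 0.420 for COX3, -0.167 to 0.468 for ATP6 and -0.229 to 0.386 for ATP8. In A549 oncosphere culture the ranges were -0.160 to 0.058 for ND5 and -0.193 to 0.229 for COX3. In H2023 normal culture they were -0.313 to 0.125 for ND2, -0.230 to 0.013 for ND4, -0.078 to 0.278 for ND5, -0.302 to 0.085 for COX2, -0.309 to 0.194 for COX3 and -0.164 to 0.251 for ATP6. In H2023 oncosphere culture they were -0.009 to 0.081 for ND4 and -0.032 to 0.098 for COX2. The culture difference in A549 knockout ranged from -0.010 to 0.558 for ND4, -0.222 to 0.413 for ATP6 and -0.195 to 0.420 for ATP8. Where a group was left with 1 library, that library was assumed to vary like the other groups.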
